A study of Mus musculus with 32 samples.

Results

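The genes described here are 10 genes of the lysosome and of autophagy, out of 41388 genes counted. They were chosen by name, with earlier results of these data known: Neu1, Ctsa, Ctsb, Ctsd, Ctsl, Ctsz, Lamp1, Sqstm1, Map1lc3a and Map1lc3b. They were measured by RNA sequencing in primary chondrocytes, the cells of cartilage, taken from the femoral heads of inbred LG/J and SM/J mice. The mice were 21 days old after birth, and both strains entered as females and as males, which made 4 groups of 8 libraries: LG/J female, LG/J male, SM/J female and SM/J male. All 32 cultures had the same treatment: 4 days in a 24-well plate in high glucose DMEM with 10% fetal bovine serum, with no passage and no added agent. Within a group the libraries carry the numbers 1 to 8, and nothing in the labels says whether these were separate animals or wells, so the p-values below measure the spread between libraries, which may be technical.

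Lysosomes break down proteins, sugars and lipids with acid hydrolases, among them the proteases called cathepsins. In autophagy a double membrane coated with LC3 proteins closes around cargo and fuses with a lysosome, which digests it. Chondrocytes use both to turn over matrix fragments and worn organelles, and several cathepsins can cut collagen or aggrecan. NEU1 is the lysosomal sialidase and needs cathepsin A, the product of Ctsa, as its partner in a complex with beta-galactosidase. SM/J mice are known from earlier work to carry a Neu1 allele with low sialidase activity. Transcription factors of the TFEB family are known to drive many lysosomal genes through promoter sites built on the letters CACGTG, and MTORC1 at the lysosome surface holds TFEB back.

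Promoter letters are shown first, because many lysosomal genes are known to carry that site. RefSeq promoters on GRCm38.p6, 250 bases before to 50 bases after a gene's start, were found for 8 of the 10 genes. The stretches below lie before the RefSeq start used, are written 5′ to 3′ on the gene's strand, and carry CACGTG or TCACGTGA in capitals where either occurs. Neu1 is shown as the gene with the largest strain difference, Lamp1 as the gene with the most matches, and the other 3 as the cathepsin genes with a match. For those 3, a wider stretch around the match touched an exon of at least 1 annotated transcript of the gene, and it was cut to 30 bases. Whether the 30 bases shown lie in an exon was not checked.
Neu1 (chr17:34931153-34931252, plus strand): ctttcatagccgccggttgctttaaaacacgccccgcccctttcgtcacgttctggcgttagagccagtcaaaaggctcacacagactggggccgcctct
Lamp1 (chr8:13159060-13159160, plus strand): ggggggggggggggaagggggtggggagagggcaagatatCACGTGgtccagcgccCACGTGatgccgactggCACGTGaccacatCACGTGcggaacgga
Ctsa, start 2 (chr2:164833743-164833772, plus strand): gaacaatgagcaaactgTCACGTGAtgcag
Ctsd (chr7:142387908-142387937, minus strand): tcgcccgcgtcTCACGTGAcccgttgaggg
Ctsl (chr13:64370739-64370768, minus strand): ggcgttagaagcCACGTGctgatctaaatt

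The 6 letters CACGTG read the same on both strands and occurred in 7.15% of the 32851 promoters of the same length. The 8 letters TCACGTGA, which contain CACGTG and also read the same on both strands, occurred in 0.974% of them. Lamp1 held CACGTG 4 times. Ctsa held TCACGTGA 2 times at its start 2, on either side of the start, and neither motif at its start 1. Ctsd held CACGTG 2 times, and 1 of these was part of TCACGTGA. Ctsl held CACGTG 1 time, and the windows of Neu1, Ctsz, Sqstm1 and Map1lc3b held neither. These are matches of letters and not shown sites of binding.

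Library totals ran from 15840330 to 25571598 counts, and all 10 genes passed the filter on low counts that kept 16136 genes. The LG/J female and male libraries numbered 1 stood apart from the other 30. Their summed levels of 10 chondrocyte markers were 1650 and 2743 CPM (counts scaled by library total and a factor from the trimmed mean of M-values, TMM, except where called deposited), against 14988 to 39022 in the other 14 LG/J libraries. Their summed levels of 10 inflammatory genes were 39893 and 37045 CPM, against at most 2392 in those 14. Results are therefore given with and without these 2 libraries. In 6 libraries transcripts of both sexes were present, and these carried neighbouring numbers with like levels. Ddx3y was at 23.5 and 20.3 deposited CPM in LG/J female 4 and 5, and at 81.0 and 84.5 in SM/J female 3 and 4. Xist was at 16.8 and 15.2 deposited CPM in SM/J male 2 and 3. In 8 pairs of libraries within groups, called close pairs, the difference was under a limit of 5 times sampling noise. No gap set them apart, as they reached 4.92 and the next pair was at 5.031. They joined libraries of neighbouring numbers, except SM/J male 6 and 8. Whether such libraries were repeats of 1 culture was not tested. If they were, the libraries counted below are not all separate samples. The strain and sex tests were also computed without the 6 libraries and with the close pairs summed. All 10 chondrocyte markers had reads in every library, and 3 of them were higher in LG/J (7 without the 2 libraries), whose part in the results below was not tested. Summed over the 17 macrophage markers, LG/J libraries had a lowest, median and highest level of 33.7, 62.3 and 981 CPM. For SM/J libraries these values were 32.9, 140 and 1053 CPM. The ranges were thus alike, but the median was higher in SM/J, also against the 60.5 CPM of LG/J without the 2 libraries. Of the 17 markers, 11 had a read in every LG/J library and 13 in every SM/J library. The part of this difference in the results below was not tested.

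The strain comparison asks which of these genes differ between LG/J and SM/J chondrocytes. Of the 10 genes, 5 passed the test, an adjusted p under 0.05 by edgeR's quasi-likelihood test over both sexes, beside 29.9% of all genes tested. As the 10 genes were chosen with earlier results of these data known, their counts and median beside all genes are descriptions and no test of the set. Neu1, Ctsl, Lamp1 and Map1lc3b were lower in LG/J, beside 13.5% of all genes, and Map1lc3a was higher in LG/J, beside 16.4%. Ctsa, Ctsb, Ctsd, Ctsz and Sqstm1 did not pass. The median log2 fold change, LG/J over SM/J, was -0.23 over the 10 genes and 0.02 over all genes. Without the 2 LG/J libraries numbered 1, 7 of the 10 genes passed, beside 32.2% of all genes, and 6 of these were lower in LG/J, beside 15.1%. In bulk RNA, fewer cells of a type and less RNA per cell cannot be told apart. The strains overlapped in the level of each of the 10 genes, while 2.62% of all genes did not overlap.

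**Figure D1:**
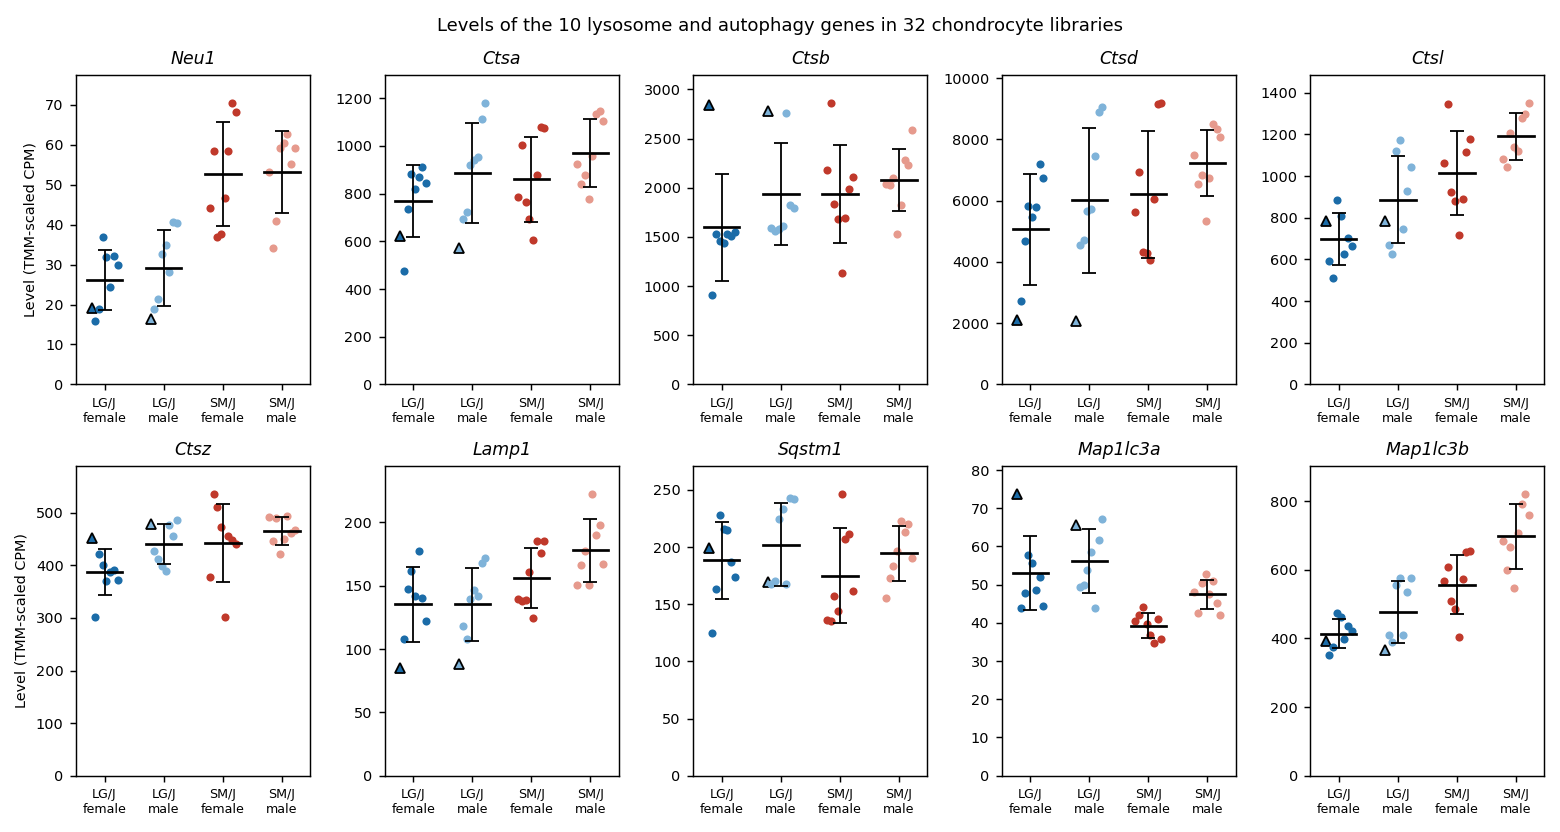
Level of each gene in TMM-scaled CPM (vertical axis, from 0) in the 8 libraries of each strain and sex group, with the group mean (bar) and SD (whisker); triangles are the LG/J libraries numbered 1. Neu1 lies at 16.0 to 40.7 in LG/J and 34.1 to 70.5 in SM/J, and Ctsd at 2075 to 9049 and 4057 to 9197.

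The sialidase gene Neu1 (ENSMUSG00000007038, chromosome 17, 34931253 to 34935953) had the largest difference of the 10. Levels, in TMM-scaled CPM, had a lowest, median and highest value of 16.0, 27.2 and 36.8 in LG/J females and 16.3, 30.4 and 40.7 in LG/J males. The same 3 values were 36.9, 52.6 and 70.5 in SM/J females and 34.1, 57.1 and 62.6 in SM/J males. Within females the highest LG/J library was just under the lowest SM/J library, and within males the strains overlapped. The mean was 27.6 ± 8.48 CPM in LG/J against 52.9 ± 11.4 CPM in SM/J (SD, n = 16 each), and 12 LG/J libraries lay below the lowest SM/J library. Neu1 was 1.92-fold higher in SM/J, a log2 fold change of -0.94 ± 0.14 (SE) with an edgeR adjusted p of 2.71e-06. Without the libraries numbered 1 it was -0.87, with an adjusted p of 7.78e-06. The 2 left-out libraries were at 19.1 and 16.3 CPM, the latter the lowest of the LG/J males.

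Ctsa (ENSMUSG00000017760, chromosome 2, 164832873 to 164841032) encodes cathepsin A, the carboxypeptidase that carries NEU1. Its lowest, median and highest levels were 474, 857 and 1181 CPM in LG/J against 604, 901 and 1145 CPM in SM/J, so the strains lay over each other. On the log2 scale the fold change was -0.14 ± 0.10 (SE), and the edgeR adjusted p was 0.318. Set against its partner in the same library, in CPM not corrected for length and only to compare libraries, Neu1 was 3.30 ± 0.46% of the Ctsa level in LG/J and 5.82 ± 1.02% in SM/J (SD, n = 16 each). Of the 16 LG/J libraries, 15 lay below the lowest SM/J library in this ratio, which was chosen after the levels had been seen and was not tested. Ctsa overlaps Pltp and Neurl2 on the other strand, which averaged 25.9 and 1.90 deposited CPM. Glb1, the beta-galactosidase of the complex, had a log2 fold change of -0.14 ± 0.06 (SE), with an adjusted p of 0.066, and without the LG/J libraries numbered 1 it was -0.17, with an adjusted p of 0.0162.

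Cathepsins B, L and Z are cysteine proteases, and cathepsin L also processes other cathepsins. Ctsl (ENSMUSG00000021477, chromosome 13, 64363214 to 64370306) had a lowest, median and highest level of 513, 686 and 887 CPM in LG/J females and 626, 856 and 1174 CPM in LG/J males. In SM/J these were 718, 995 and 1347 CPM in females and 1043, 1176 and 1353 CPM in males. LG/J females were the lowest group and SM/J males the highest, with overlap in both sexes. The mean was 792 ± 193 CPM in LG/J against 1103 ± 181 CPM in SM/J (SD, n = 16 each). Its log2 fold change was -0.48 ± 0.09 (SE), with an edgeR adjusted p of 0.000155, and it was -0.48 without the libraries numbered 1.

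Ctsb (ENSMUSG00000021939, chromosome 14, 63122462 to 63145919) encodes cathepsin B. Its lowest, median and highest levels were 914, 1568 and 2844 CPM in LG/J against 1131, 2036 and 2864 CPM in SM/J. The 2 highest LG/J libraries were the 2 numbered 1, at 2844 and 2779 CPM, followed by LG/J male 6 at 2757 CPM. The highest of all 32 was SM/J female 2, at 2864 CPM. After these came SM/J male 8, at 2586 CPM. LG/J male 6 and SM/J female 2 also had the highest macrophage marker sums, 981 and 1053 CPM. In that sum the LG/J female and male libraries numbered 1 followed, at 425 and 318 CPM, and then SM/J male 8, at 292 CPM. The part of such cells in the Ctsb level was not tested. The log2 fold change was -0.19 ± 0.13 (SE), with an edgeR adjusted p of 0.277. Without the 2 libraries numbered 1 it was -0.32 ± 0.11 (SE), with an adjusted p of 0.0213, so the call turned on them. With limma voom and quality weights it also passed, at an adjusted p of 0.032. In the 2 libraries numbered 1, chondrocyte markers were low, and inflammatory genes and macrophage markers were high. The part of each in the result was not tested. Fdft1, on the other strand, overlaps Ctsb by 767 bases and averaged 63.3 deposited CPM.

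Ctsz (ENSMUSG00000016256, chromosome 2, 174427493 to 174439039), the gene of the carboxypeptidase cathepsin Z, varied little. Its lowest, median and highest levels were 301, 407 and 487 CPM in LG/J against 301, 458 and 536 CPM in SM/J, with the strains overlapping over most of their range. On the log2 scale the fold change was -0.14 ± 0.06 (SE), with an edgeR adjusted p of 0.102. The adjusted p was 0.0478 without the 2 LG/J libraries numbered 1, and 0.0136 without SM/J female library 5, the lowest SM/J library.

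Ctsd (ENSMUSG00000007891, chromosome 7, 142371148 to 142388038) encodes cathepsin D, the main aspartic protease of lysosomes. It was the most abundant of the 10 genes per length, at 2199 ± 831 TMM-scaled RPKM, the scaled CPM over gene length in kilobases, in LG/J and 2666 ± 670 RPKM in SM/J (SD, n = 16 each). In CPM its lowest, median and highest levels were 2075, 5696 and 9049 in LG/J and 4057, 6774 and 9197 in SM/J. The 2 libraries numbered 1 were the lowest of all 32, at 2107 and 2075 CPM, where Ctsb was at its highest in LG/J. Its log2 fold change was -0.28 ± 0.17 (SE), with an edgeR adjusted p of 0.244, and -0.16 without these libraries. On the same strand Ctsd overlaps Ifitm10, which averaged 23.1 deposited CPM.

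By length the other genes followed Ctsd at a distance. Mean TMM-scaled RPKM in LG/J and SM/J was 372.6 and 423.3 for Ctsb, 402.0 and 559.8 for Ctsl, 287.1 and 314.9 for Ctsz, and 175.7 and 194.1 for Ctsa. Ctsl was above Ctsb in both strains, and within LG/J their means differed by less than either SD. Lamp1, Sqstm1 and Map1lc3b lay between 55.04 and 83.42 RPKM in either strain, Map1lc3a at 46.26 and 36.72, and Neu1 was lowest at 7.40 and 14.2. The lysosomal proteases were thus the most abundant of the 10 transcripts and the sialidase the least abundant, in both strains.

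Lamp1 (ENSMUSG00000031447, chromosome 8, 13159135 to 13175338) encodes the most abundant glycoprotein of the lysosomal membrane. Its lowest, median and highest levels were 84.6, 141 and 177 CPM in LG/J females and 88.4, 141 and 172 CPM in LG/J males. They were 125, 150 and 186 CPM in SM/J females and 151, 172 and 222 CPM in SM/J males. The lowest library of each LG/J group was that numbered 1. The mean was 135 ± 28.3 CPM in LG/J against 167 ± 26.1 CPM in SM/J (SD, n = 16 each), a log2 fold change of -0.30 ± 0.09 (SE) with an edgeR adjusted p of 0.0158. Without the libraries numbered 1 it was -0.23, with an adjusted p of 0.031. The call was lost with scaling by library size only, with an adjusted p of 0.0788, and with close pairs summed, with an adjusted p of 0.106.

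Map1lc3a and Map1lc3b encode LC3A and LC3B, 2 forms of the ubiquitin-like protein that is joined to lipid on the autophagosome membrane. They differed between the strains in opposite directions. Map1lc3b (ENSMUSG00000031812, chromosome 8, 121590361 to 121598760) had a lowest, median and highest level of 351, 410 and 475 CPM in LG/J females and 365, 474 and 576 CPM in LG/J males. In SM/J these were 405, 570 and 654 CPM in females and 547, 696 and 821 CPM in males. In SM/J 10 libraries lay above the highest LG/J library, and in LG/J 6 lay below the lowest SM/J library. The mean was 446 ± 76.1 CPM in LG/J against 627 ± 113 CPM in SM/J (SD, n = 16 each), a log2 fold change of -0.49 ± 0.08 (SE) with an edgeR adjusted p of 1.01e-05.

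Map1lc3a (ENSMUSG00000027602, chromosome 2, 155276297 to 155278073) had a lowest, median and highest level of 43.9, 50.3 and 73.7 CPM in LG/J females and 43.8, 56.1 and 67.2 CPM in LG/J males. In SM/J these were 34.6, 40.1 and 44.2 CPM in females and 42.0, 47.8 and 52.8 CPM in males. The LG/J female library numbered 1 was the highest of all 32, and 8 LG/J libraries lay above the highest SM/J library. The log2 fold change was 0.34 ± 0.07 (SE), with an edgeR adjusted p of 0.000187. Without the libraries numbered 1 it was 0.28, with an adjusted p of 0.000213.

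Set against each other in the same library, again with no correction for length, the Map1lc3b count was 8.27 ± 1.31 times that of Map1lc3a in LG/J, with a range of 5.35 to 10.3. In SM/J it was 14.5 ± 2.51 times, with a range of 10.4 to 18.3 (SD, n = 16 each). The strains did not overlap in this ratio, although the highest LG/J and the lowest SM/J library were close to each other. The ratio was chosen after the levels had been seen and was not tested.

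The transcript of Map1lc3b has 4 look-alike genes in the tables, with at least 95% identity over at least 300 bases, so reads could be split between them. Of these Gm6055 was at 12.6 ± 2.24 CPM in LG/J against 4.90 ± 1.20 CPM in SM/J (SD, n = 16 each), and the other 3 had means under 1 CPM. The log2 ratio of the strain means was -0.49 for Map1lc3b alone and -0.46 for the sum with its look-alikes. How reads that match several genes were handled is not given in the sources used here.

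Sqstm1 (ENSMUSG00000015837, chromosome 11, 50199366 to 50210827) encodes p62, a receptor that carries ubiquitin-tagged cargo to LC3 and also binds KEAP1. Its lowest, median and highest levels were 125, 193 and 243 CPM in LG/J against 136, 187 and 246 CPM in SM/J, almost the same range. The mean was 195 ± 34.6 CPM in LG/J against 185 ± 34.1 CPM in SM/J (SD, n = 16 each). On the log2 scale the fold change was 0.08 ± 0.09 (SE), with an edgeR adjusted p of 0.55. Its sign turned to -0.02 when the 6 libraries that held transcripts of both sexes were left out.

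**Figure D2:**
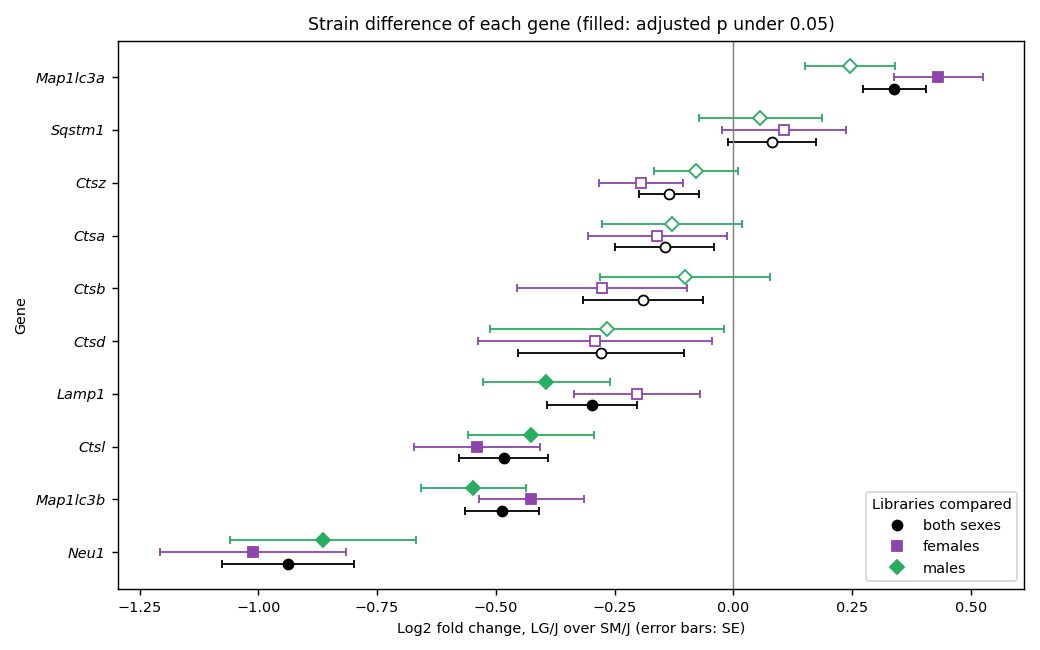
Log2 fold change of each gene, LG/J over SM/J (horizontal axis), for both sexes together, females alone and males alone, with the SE as error bar and filled symbols where the edgeR adjusted p was under 0.05. Neu1 lies farthest left, at -0.94 over both sexes, and Map1lc3a farthest right, at 0.34.

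Within females 4 of the 10 genes passed, beside 13.4% of all genes, and within males 4 passed, beside 22.3%. Without the LG/J libraries numbered 1 these counts were 5, beside 15.9%, and 4, beside 24.7%, and Ctsb was gained in females at -0.45 with an adjusted p of 0.0426 by edgeR. Neu1, Ctsl and Map1lc3b passed in both sexes. The log2 fold change of Neu1 was -1.01 ± 0.20 (SE) in females and -0.86 ± 0.20 (SE) in males, and that of Ctsl was -0.54 ± 0.13 and -0.43 ± 0.13. That of Map1lc3b was -0.43 ± 0.11 (SE) in females and -0.55 ± 0.11 (SE) in males. Map1lc3a passed in females, at 0.43 ± 0.09 (SE), and in males was 0.25 ± 0.09 (SE) with an edgeR adjusted p of 0.0587. Lamp1 passed in males, at -0.39 ± 0.13 (SE) with an adjusted p of 0.0317, and in females was -0.20 ± 0.13 (SE) with an adjusted p of 0.374.

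The Lamp1 call in males was lost when any 1 of 6 single libraries was left out: LG/J male 1, 2 or 3, or SM/J male 5, 6 or 7, with adjusted p of at most 0.0759 over the 32 leave-one-out fits. It was also lost with library size scaling, with no filter, without the 6 libraries that held both sexes' transcripts and with close pairs summed, at adjusted p of 0.122, 0.0651, 0.0667 and 0.18 by edgeR. That of Ctsl in males was lost with close pairs summed, at an adjusted p of 0.103. The Map1lc3a call in males was gained when LG/J female 1 or 2 or LG/J male 2, 3 or 6 was left out, with a smallest adjusted p of 0.0205. It was also gained with library size scaling, with limma voom and without the 2 libraries with macrophage markers over 500 CPM, at adjusted p of 0.0178, 0.0278 and 0.0223. The test of the difference between the sexes in the strain effect passed for 0 of the 10 genes in edgeR, beside 0.0062% of all genes, with 0 at an unadjusted p under 0.05, beside 8.34% of all genes. DESeq2 and limma voom also called 0 of the 10. The adjusted p ran from 0.814 upward, so a passing test in 1 sex only does not show that the sexes differed.

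The sex comparison, male over female across both strains, called 0 of the 10 genes in edgeR, beside 3.46% of all genes, with 4 at an unadjusted p under 0.05, beside 18.8% of all genes. The estimates were above 0 for all 10 genes, beside 47% of all genes, with log2 fold changes from 0.09 to 0.29. Ctsl was highest, at 0.29 ± 0.09 (SE) with an adjusted p of 0.0801, and Map1lc3b followed at 0.26 ± 0.08 (SE) with an adjusted p of 0.0522. Without the 2 LG/J libraries numbered 1, 3 genes passed, beside 5.68% of all genes. These were Ctsl, Map1lc3a and Map1lc3b, with adjusted p of 0.0492, 0.0287 and 0.0279. Without the 6 libraries that held both sexes' transcripts, 0 of the 10 genes passed, beside 2.4% of all genes. With close pairs summed 0 of the 10 passed, beside 0.0613%. DESeq2 called 2 of the 10, Ctsl and Map1lc3b, beside 9.8% of the 10505 genes to which it gave an adjusted p. With limma voom these and Map1lc3a passed, beside 10.7% of all genes.

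Many pairs of the 10 genes rose and fell together from library to library within the groups. Deviations of log2 levels from the group mean were correlated over the 30 libraries without the LG/J libraries numbered 1, for all 45 pairs, with a permutation test of 100000 resamples and adjustment over the 45 pairs. Pearson's r was above 0 in 42 pairs, or 93.3%, beside 49.8% of all pairs of genes kept, and above 0.5 in 21 pairs, or 46.7%, beside 4.59%. All pairs include genes with low counts, where counting noise lowers r, and they were not matched to the 10 genes by level. The 45 pairs share 10 genes and are not separate observations. Of the 45 pairs, 23 passed at an adjusted p under 0.05. Some libraries are close to one another, so these p-values treat as separate what may not be. Libraries share depth and scaling, which can move genes together, and that part was not tested.

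The closest pair was Ctsa and Ctsd, with r = 0.948 and Spearman's rho = 0.931, each with a permutation p of 1e-05, the smallest that the resamples can give, and adjusted p of 0.00011 and 9e-05. Without the 2 libraries farthest from the median of Ctsa, r was 0.928, and with close pairs averaged, over 22 libraries, it was 0.956. The next was Ctsl and Map1lc3b, with r = 0.861 and rho = 0.86 at adjusted permutation p of 0.00011 and 9e-05, r = 0.817 without the 2 farthest libraries and 0.837 over 22 libraries. Neu1 and its partner Ctsa had r = 0.803 and rho = 0.822, with adjusted permutation p of 0.00015 and 9e-05, and r = 0.736 without the 2 farthest libraries. Libraries with more Ctsa thus also had more Neu1 within each strain, at a lower level of Neu1 in LG/J, as the plot of Neu1 against Ctsa shows.

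Ctsb, Ctsz, Sqstm1 and Map1lc3a had lower correlations with many of the others. Ctsb had r = 0.713 and rho = 0.467 with Ctsz, at adjusted permutation p of 0.0015 and 0.029, and r = 0.476 without the 2 farthest libraries. With Sqstm1 it had r = -0.193 and rho = -0.126, at adjusted permutation p of 0.39 and 0.57. The 2 LC3 genes had r = 0.41 and rho = 0.393, at adjusted permutation p of 0.067 and 0.07. Sqstm1 had r = 0.636 and rho = 0.644 with Neu1, at adjusted permutation p of 0.0018 and 0.0023, and r = 0.537 without the 2 farthest libraries.

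**Figure D3:**
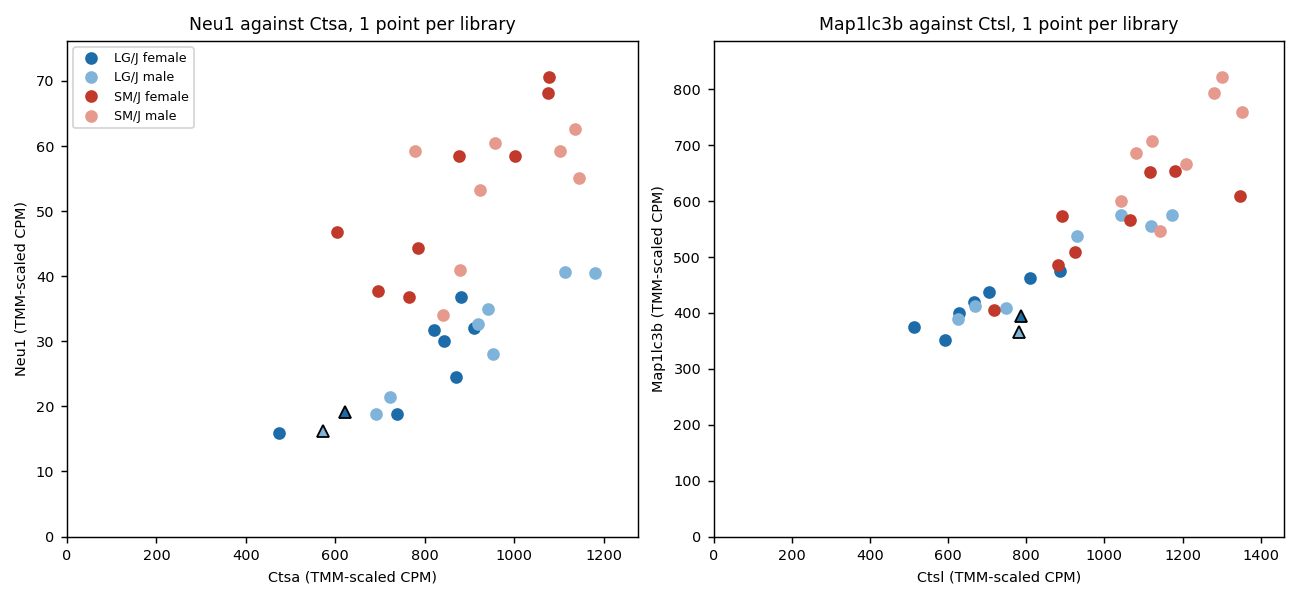
Level of Neu1 against Ctsa (left) and of Map1lc3b against Ctsl (right) in TMM-scaled CPM, 1 point per library, coloured by strain and sex, with triangles for the LG/J libraries numbered 1. On the left the SM/J libraries lie above the LG/J libraries at like Ctsa levels, with Neu1 at 5.82% of Ctsa on average against 3.30%.

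**Figure D4:**
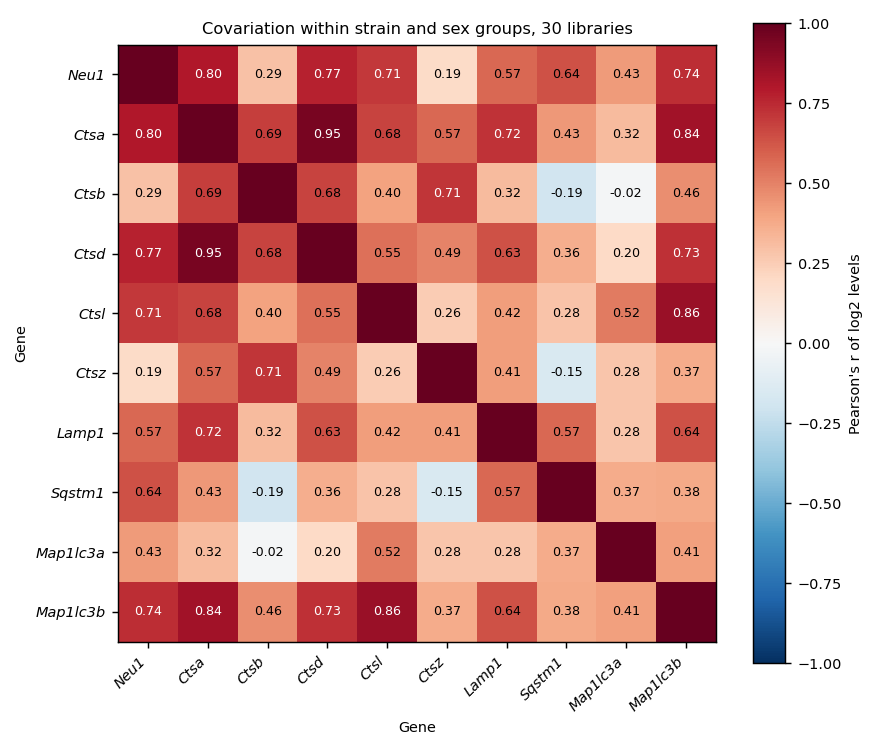
Pearson's r of log2 levels, as deviations from the strain and sex group mean, for the 45 pairs of the 10 genes over 30 libraries (colour scale from -1 to 1). Ctsa and Ctsd have the highest value, and Ctsb and Sqstm1 the lowest, at -0.193.

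Among all genes whose mean log2 CPM was 3 or more, the 3 most alike to Neu1 over the same 30 libraries were Acot13, Ctns and Fbxo7, with r = 0.934, 0.931 and 0.907. Ctns encodes the lysosomal cystine transporter, and its strain difference was 0.01 ± 0.15 (SE) on the log2 scale. For Ctsl they were Gyg, Map1lc3b and Tmed4, with r = 0.934, 0.861 and 0.847. For Lamp1 they were Rab7, Atp6ap1 and Tpp1, with r = 0.860, 0.857 and 0.840. Rab7 encodes a GTPase of late endosomes, Atp6ap1 an accessory protein of the proton pump and Tpp1 a lysosomal peptidase. For Map1lc3b they were Cd63, Ctsl and Cd63-ps, with r = 0.869, 0.861 and 0.856, and Cd63-ps is a pseudogene of Cd63 that may share its reads. These correlations over libraries are descriptions, picked as the highest among many.

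Other genes of the lysosome and of autophagy were taken from 12 lists, with 182 genes tested. Over both sexes 23 were higher in LG/J (12.6%), 27 were lower (14.8%) and 132 did not pass, beside 16.4% and 13.5% of all genes, and their median log2 fold change was -0.04. Without the 2 LG/J libraries numbered 1, 24 were higher and 39 lower, beside 17.1% and 15.1% of all genes. Directions were mixed within most lists, as the plot of strain differences by list shows. The lists are short, and the counts by list below without the 2 libraries also stand beside 17.1% higher and 15.1% lower of all genes.

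**Figure D5:**
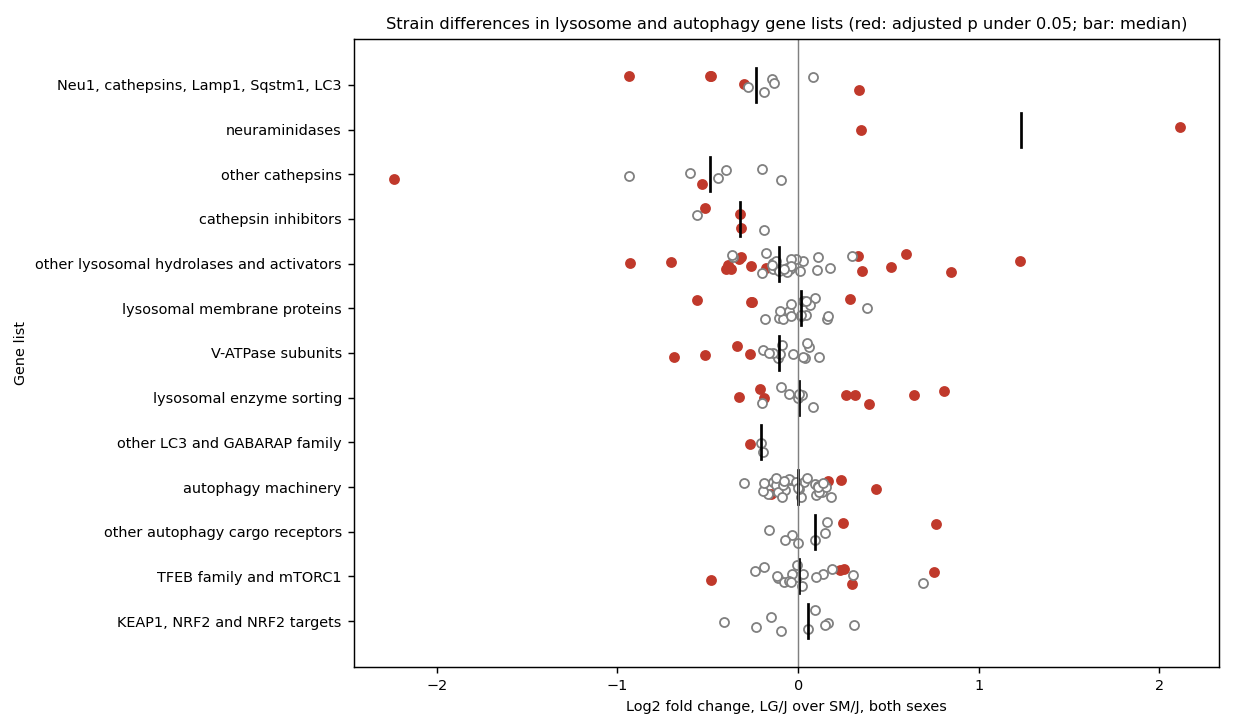
Log2 fold change, LG/J over SM/J over both sexes (horizontal axis), of each tested gene in the 10-gene set and 12 further lists, red where the edgeR adjusted p was under 0.05, with the list median as a bar. The 10 genes have a median of -0.23, and the cathepsin inhibitors one of -0.32.

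Among enzymes next to the 10 genes, both other neuraminidases tested were higher in LG/J, opposite to Neu1. Neu3, of the plasma membrane, was 5.41 ± 1.07 CPM in LG/J against 4.25 ± 1.01 CPM in SM/J (SD, n = 16 each), with an edgeR adjusted p of 0.0208, which rose to 0.0516 with no filter on low counts. Neu2, the cytosolic form, was near the limit of detection at 0.84 ± 0.51 and 0.19 ± 0.14 CPM, and it lies within Ngef on the other strand, which averaged 5.802 CPM.

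Of 8 further cathepsins tested, 0 were higher and 2 were lower, beside 16.4% and 13.5% of all genes. The 2 were Ctsh at -0.53 and Ctss at -2.24 ± 0.69 (SE) with an edgeR adjusted p of 0.0133. Without the LG/J libraries numbered 1, 4 were lower, with Ctso at -0.87 and Ctsw at -1.10 added, at adjusted p of 4.59e-07 and 0.016. The calls of Ctsh and Ctss were lost with close pairs summed, at adjusted p of 0.0565 and 0.0921, and that of Ctsh also without the 6 libraries that held both sexes' transcripts, at 0.135. Ctss is a cathepsin of myeloid cells. Of 14 macrophage markers tested, 3 were also lower in LG/J and 0 higher, beside 13.5% and 16.4% of all genes. The part of such cells in the Ctss result was not tested. Without the 2 libraries with macrophage markers over 500 CPM, 5 of the 10 genes described here passed over both sexes, beside 30.3% of all genes. These 2 were LG/J male 6 and SM/J female 2, so leaving them out does not answer for such cells in the other libraries. Ctsk, the cathepsin that cuts collagen, was 290 ± 99.6 CPM in LG/J against 335 ± 89.9 CPM in SM/J and did not pass.

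Cathepsin inhibitors were lower in LG/J in 3 of 5 genes tested and higher in 0, beside 13.5% and 16.4% of all genes. The list held 9 genes, and those not tested did not pass the filter on low counts. Cst3, which encodes secreted cystatin C, was 980 ± 270 CPM in LG/J against 1406 ± 422 CPM in SM/J (SD, n = 16 each), a log2 fold change of -0.52 ± 0.13 (SE). Cstb, of cytosolic cystatin B, and Serpinb6a were each at -0.32, and both calls were lost with close pairs summed, at adjusted p of 0.183 and 0.215. That of Serpinb6a was also lost without the 6 libraries that held both sexes' transcripts, at 0.193, and this gene overlaps Nqo2 on the other strand, at 35.7 CPM.

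Of 39 further hydrolases and activators, 6 were higher and 9 lower, beside 16.4% and 13.5% of all genes. Without the LG/J libraries numbered 1, Gla, Glb1, Gusb, Hyal2 and Npc2 also passed, all lower in LG/J. In that fit Man2b1, called higher with all libraries, and Aga, called lower, did not pass, at edgeR adjusted p of 0.0618 and 0.0576. Manba, of the beta-mannosidase, was 24.6 ± 4.34 CPM in LG/J against 10.6 ± 3.86 CPM in SM/J (SD, n = 16 each), with an edgeR adjusted p of 1.81e-09. Galns, of the sulfatase that degrades keratan sulfate and chondroitin 6-sulfate of cartilage, was at 0.52 with an adjusted p of 1.25e-07.

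Of 21 membrane proteins, 1 was higher and 3 were lower, beside 16.4% and 13.5% of all genes (2 and 3 without the LG/J libraries numbered 1). Slc17a5, which carries the sialic acid that sialidases release out of the lysosome, was at 0.29, the channel gene Tpcn2 at -0.56 and the tetraspanin gene Cd63 at -0.26, whose call was lost with close pairs summed, at an adjusted p of 0.0526. Of 16 subunits of the V-ATPase, the pump that acidifies lysosomes, 4 were lower and 0 higher, beside 13.5% and 16.4% of all genes. Among the 4 were Atp6v1b2 at -0.69, Atp6v0e at -0.51 and Atp6v1e1 at -0.34. Of 15 genes for the sorting of enzymes to lysosomes, 5 were higher and 3 lower, beside 16.4% and 13.5% of all genes. Gnptab, of the enzyme that starts the mannose 6-phosphate tag, was at 0.64, Gga3 at 0.31 and the retromer gene Vps26a at -0.33. Gga3 overlaps Mrps7 on the other strand, at 57.3 CPM.

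Of the 3 other LC3 and GABARAP genes, 1 was lower, beside 13.5% of all genes. This was Gabarapl2 at -0.26, and that call was lost with close pairs summed, at an edgeR adjusted p of 0.0532. Gabarap was at -0.20 with an edgeR adjusted p of 0.122. Of 33 genes of the autophagy machinery, 3 were higher and 1 lower, Becn1 at -0.15, beside 16.4% and 13.5% of all genes. Ambra1 was at 0.43, and Atg4c was at 0.24 with an adjusted p of 0.0425, a call that was lost in 21 of the 32 fits with 1 library left out. Without the LG/J libraries numbered 1, 2 of the 33 were higher and 4 lower. The Becn1 call was lost with library size scaling, no filter and close pairs summed, at adjusted p of 0.138, 0.0751 and 0.108.

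Of 9 cargo receptors other than Sqstm1, 2 were higher and 0 lower, beside 16.4% and 13.5% of all genes. The 2 were the mitophagy receptor gene Bnip3 at 0.76 and Nbr1 at 0.25. The LG/J libraries numbered 1 held Bnip3 at 378 and 328 CPM, where LG/J had a mean of 233 ± 86.5 CPM, and the log2 fold change was 0.65 without them. The Nbr1 call was lost with close pairs summed, at an adjusted p of 0.081. Of 9 genes of KEAP1, NRF2 and their targets, which p62 can influence, 0 passed in edgeR, beside 29.9% of all genes. The 3 with the highest counts were Hmox1 at -0.41, Nfe2l2 at 0.17 and Nqo1 at -0.10 on the log2 scale. Without the LG/J libraries numbered 1, 2 of the 9 passed, both lower in LG/J: Gclc at -0.34, and Slc7a11 at -0.31, where it had been at 0.31 with them, with adjusted p of 0.0366 and 0.0172. Those 2 libraries held Slc7a11 at 109 and 60.2 CPM, where SM/J had a mean of 19.2 ± 4.25 CPM.

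Of 22 genes of the TFEB family and of MTORC1 at the lysosome, 4 were higher and 1 lower, beside 16.4% and 13.5% of all genes. Without the LG/J libraries numbered 1 these counts were 5 and 2. Lamtor5 and Lamtor1, which encode 2 subunits of the Ragulator complex that anchors MTORC1 to the lysosome, differed in opposite directions. Lamtor5 was 78.8 ± 8.50 CPM in LG/J against 47.2 ± 8.31 CPM in SM/J (SD, n = 16 each), with an edgeR adjusted p of 1.2e-12 and no overlap between the strains. Lamtor1 was at -0.48 with an adjusted p of 0.000793, and Tsc1, a brake on MTORC1, at 0.30. Tfeb itself was low, at 1.44 ± 0.72 CPM in LG/J against 1.55 ± 0.34 CPM in SM/J, and Tfe3 was 19.1 ± 4.18 and 16.8 ± 3.32 CPM, and neither passed.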

How the data were processed

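Strain and sex, from the labels, defined the 4 groups. The submitters' processing notes name STAR 2.0.4b, featureCounts 1.45 and the build GRCm38. For the strand setting and the annotation release, the value is not given in the sources used here. Per gene, the authors deposited whole-number counts for 41388 genes with CPM and RPKM. The deposited CPM equalled the count over the library total to within 1.2e-10, and the deposited RPKM that CPM over gene length to within 9.1e-11. A symbol was found for 40254 genes.

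Counts were filtered with filterByExpr (16136 genes kept), scaled by TMM and fitted with the robust quasi-likelihood model of edgeR 4.0.16 in R 4.3.3, with 1 mean per group over all 32 libraries. Calls were made at an adjusted p under 0.05 (Benjamini-Hochberg, all genes kept). The SE is the size of the log2 fold change over the square root of F. Levels are TMM-scaled CPM. Total counts per library ran from 15840330 to 25571598. The tests were checked on simulated data. Alternatives were other scalings and filters, DESeq2 1.42.0, voom of limma 3.58.1 with quality weights, a block for the library number, sets of libraries left out, close pairs summed and each library left out. Leaving out the libraries with macrophage markers over 500 CPM, and summing Map1lc3b with its look-alikes, were chosen after seeing the data.

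The 10 genes and all lists were chosen with earlier results of these data known. Further genes were named by rule: up to 3 called genes with the smallest p per list (the 3 with the highest counts where 0 were called), and the 3 genes most alike to Neu1, Ctsl, Lamp1 and Map1lc3b. A gene that this rule named among the hydrolases is not reported here. Aga, Gla, Glb1, Gusb, Hyal2, Man2b1, Npc2, Ctsk, Ctso, Ctsw, Gabarap, Gclc, Slc7a11, Tfeb and Tfe3 were added after their values were seen. Promoters came from RefSeq.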

Additional observations from a re-analysis of the deposited data

Results flagged for a closer look

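The level of each of the 10 genes was checked for a library far from the rest in each of the 4 groups of 8, which made 40 checks, and chance alone would mark about 1 in 20. Ctsb in LG/J female library 1 had a level of 2844 CPM, while the rest of that group lay between 914 and 1546 CPM, a gap of 0.673 of the whole range, above the limit of 0.526. Map1lc3a in the same library stood at 73.7 CPM, against 43.9 to 57.8 CPM, a gap of 0.535 of the range. Both lie in 1 of the 2 libraries with low chondrocyte markers and high inflammatory genes.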

How the results depend on the processing

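Neu1, Ctsl, Map1lc3a and Map1lc3b kept their direction and their call over both sexes under each alternative run, and with any 1 library left out the number of the 10 genes called was 5 to 6. Of 48 correlations between deviations of libraries with the same number, 30 were over 0.1 (median 0.138; 7 of 8 between LG/J females and males), and 7 of 32 libraries were closest to their own number. As the labels state no pairing and not every correlation was over 0.1, the numbers were not taken as pairs. With the number as a replicate block 5 of the 10 genes passed over both sexes, 4 for females and 5 for males (32.8%, 14.9% and 25.7% of all genes), where Map1lc3a was gained at an adjusted p of 0.0464 by edgeR.

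Counts over all genes moved by over 1.5 times as follows; the cause was not tested, except that summing close pairs leaves 24 libraries. With close pairs summed the strain comparison called 3195 genes across the sexes, 1325 for females and 2043 for males, where 2 of the 10 genes passed (12.5% of all genes). Voom called 5636 genes in males. The difference of the strain effect between the sexes called 1 gene, and 0 with library size only, no filter, the replicate block, close pairs summed, or without the libraries that held both sexes' transcripts or macrophage markers over 500 CPM, but 55 with DESeq2 and 256 with voom. The sex comparison called 558 genes, 215 of them higher in males and 343 lower (24 and 579 with library size only). It called 123 with no filter, 1029 with DESeq2 (2 of the 10 genes), 1734 with voom (3 of the 10), 1052 with the replicate block (1 of the 10, with 6.52% of all genes called), 922 without the 2 LG/J libraries numbered 1 (3 of the 10) and 10 with close pairs summed. Without the libraries with macrophage markers it called 2 of the 10 (4.07% of all genes).

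With 1 library left out in turn, the counts were 4493 to 5151 over both sexes, 1886 to 2375 in females (4 to 5 of the 10), 3008 to 4073 in males (3 to 5 of the 10), 0 to 23 for the difference between the sexes and 314 to 963 for sex (0 to 1 of the 10). Signs turned in estimates that had not passed: Sqstm1 to -0.0195 over both sexes and -0.0601 in females without the libraries that held both sexes' transcripts, Nqo1 to 0.21 in the same setting and 0.21 with close pairs summed, and Ctsb in males to 0.033 with close pairs summed. Depth did not limit the 10 genes, each of which had reads in all 32 libraries.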
